A study of Mus musculus with 4 samples.

Results

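The genes described here are 10 genes of the circadian clock, measured in regenerating mouse digit tips labelled as conditional knockouts of Sp6, of Sp8 or of both, and in wildtype. They are the period genes Per1, Per2 and Per3, the cryptochrome genes Cry1 and Cry2, the activator genes Arntl and Npas2, and the repressor genes Nfil3, Bhlhe40 and Bhlhe41. They were chosen by name after earlier results of these data were known, Per2 above all for its level in the Sp6+Sp8 cKO library, and they make up 10 of the 45706 genes counted. Each symbol matched 1 gene, and all 10 reached 1 CPM (read counts scaled to a common library total) in at least 1 library. Because values of the same 4 libraries led to the choice, every ratio below is a description of these genes and not a test of them.

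The libraries were Sp6 conditional knockout (cKO), Sp8 cKO, Sp6+Sp8 cKO and wildtype, with 1 library each, from whole digit tip regenerates collected 14 days after amputation. The series title speaks of enhancer-directed gene delivery in digits, and Sp6 and Sp8 are a pair of zinc-finger regulators made in epidermis. Per the labels' protocols, conditional knockouts were induced by 75 mg/kg of tamoxifen in corn oil, injected on 5 consecutive days and followed by 5 days of rest ahead of amputation. All mice of the protocol were anaesthetised with isoflurane and received the analgesic meloxicam. The protocol describes cuts through the distal and through the middle phalanx, and the labels call each library a digit tip amputation. The same schedule is recorded for the wildtype library, but it is worded for conditional knockouts, and the labels do not state whether wildtype mice had tamoxifen. The labels also do not state which Cre line drove the deletions, or how many animals or digits were pooled. Nor do they state the hour of tissue collection, to which clock genes are sensitive. The labels put the 3 cKO libraries in batch 1 and the wildtype library in batch 3, so batch and genotype cannot be told apart in a comparison with wildtype. The cKO libraries can be set against each other inside batch 1.

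The clock of mammalian cells is a feedback loop of transcription. ARNTL (also called BMAL1) pairs with CLOCK or its relative NPAS2, binds the E-box sequence and activates the Per and Cry genes, whose proteins return to the nucleus and repress that activator. In a further loop the nuclear receptors NR1D1 and NR1D2 repress Arntl and Npas2 through the RORE sequence, at which other receptors activate. DBP, TEF and HLF activate and NFIL3 represses at the D-box, while BHLHE40 and BHLHE41 compete for E-boxes. In a running clock Arntl and Npas2 therefore peak at about the opposite phase to the Per genes. Per1 and Per2 can in addition be induced rapidly by glucocorticoid and cyclic AMP signals. Such clocks are known to run in keratinocytes, hair follicles and dermal fibroblasts of mouse skin.

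Estimated counts summed to 13054843, 12588511 and 15146015 in the Sp6, Sp8 and Sp6+Sp8 cKO libraries, and to 21834883 in wildtype, and 3 counts corresponded to between 0.138 and 0.238 CPM. Sp6 stood at 29.2, 95.6 and 57.8 CPM in the Sp6, Sp8 and Sp6+Sp8 cKO libraries, against 97.7 CPM in wildtype. Sp8 stood at 66.1, 16.8 and 13.4 CPM in these cKO libraries, against 63.9 CPM in wildtype. In the library labelled Sp6+Sp8 cKO, Sp8 was lower past the size rule defined below, but Sp6 was 1.69-fold lower than in wildtype, inside that rule, and 1.98-fold higher than in Sp6 cKO (1.75 to 2.24). The Sp6 level thus bears out the label of that library in part only, which applies to every comparison with it, and Sp6+Sp8 cKO is used here as its label. Markers of basal and suprabasal keratinocytes, nail and hair keratin, fibroblasts, bone and vessels were found in each library, whereas skeletal muscle markers summed to at most 0.635 CPM and Myh4 had 0 counts in each. With 1 library per genotype no difference was tested against variation between animals, and intervals cover counting error only. A gene is called higher or lower past the size rule when its log2 ratio was at least 1 in either direction, its CPM was at least 1 in either library, and the exact 95% interval of the ratio excluded 1.

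The promoters of 8 of the 10 genes were matched in RefSeq on build GRCm38.p6, as windows of 250 bases before to 50 bases after each transcription start; Per2 and Bhlhe40 were not matched. On both strands, the E-box CACGTG was found in windows of Per1, Cry1 and Bhlhe41, and in 7.15% of all 32851 windows. The Per1 windows begin at 69098699 and 69099902, inside the annotated span of that gene, which begins at 69095217. Only the first of them holds the E-box. The related sequence CACGTT was found for Cry1 and Cry2, and in 4.68% of all windows. Only Per3 among these 8 genes had a D-box, searched as TTATGTAA or TTACGTAA, which 1.06% of all windows hold, and it had 2 copies. Arntl and Nfil3 had a RORE core, searched as TAGGTCA or TGGGTCA and present in 6.45% of all windows. The cyclic AMP element TGACGTCA was in none of the 8 genes' windows, and in 1.79% of all windows. The windows do not cover the beginning of the annotated Per1 span or any start of Per2, so the element was not searched for there. No match overlapped another. A match is a run of letters and does not show that a factor was bound. The following sequences are the 250 bases before a RefSeq start of 4 genes whose levels are set against each other below. For Per1 that start lies inside the annotated gene. E-boxes, CACGTT (either strand) or D-boxes are in capitals. For Arntl, 30 bases around its RORE core are given, with the core in capitals. All are read 5′ to 3′ on the gene's strand.
Per1 (chr11:69098699-69098948, plus strand): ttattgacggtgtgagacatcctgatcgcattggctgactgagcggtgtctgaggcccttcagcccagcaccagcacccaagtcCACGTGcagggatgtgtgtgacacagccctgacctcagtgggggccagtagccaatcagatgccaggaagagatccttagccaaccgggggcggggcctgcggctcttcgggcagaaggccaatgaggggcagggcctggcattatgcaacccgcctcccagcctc
Per3 (chr4:151044666-151044915, minus strand): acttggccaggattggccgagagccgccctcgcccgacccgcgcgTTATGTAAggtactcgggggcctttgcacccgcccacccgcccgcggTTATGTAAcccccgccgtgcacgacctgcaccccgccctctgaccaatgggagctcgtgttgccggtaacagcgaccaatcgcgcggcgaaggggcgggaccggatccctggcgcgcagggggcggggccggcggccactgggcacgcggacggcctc
Cry1 (chr10:85185055-85185304, minus strand): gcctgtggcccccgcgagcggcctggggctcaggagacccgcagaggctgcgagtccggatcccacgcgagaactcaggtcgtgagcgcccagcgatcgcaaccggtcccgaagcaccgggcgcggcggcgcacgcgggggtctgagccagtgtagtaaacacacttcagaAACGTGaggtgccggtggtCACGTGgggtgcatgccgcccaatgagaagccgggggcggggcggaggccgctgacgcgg
Bhlhe41 (chr6:145865421-145865670, minus strand): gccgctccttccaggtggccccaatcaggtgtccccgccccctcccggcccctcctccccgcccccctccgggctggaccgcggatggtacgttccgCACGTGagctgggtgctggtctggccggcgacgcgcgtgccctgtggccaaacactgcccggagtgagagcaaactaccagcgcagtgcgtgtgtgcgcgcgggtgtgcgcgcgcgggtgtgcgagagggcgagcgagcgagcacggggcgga
Arntl (chr7:113207530-113207559, plus strand): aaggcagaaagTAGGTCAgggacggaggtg

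The period and cryptochrome genes were higher, and the activator genes lower, in each of the 3 cKO libraries than in wildtype. For all 5 Per and Cry genes the counting interval lay above 1 in the 3 comparisons, and for Arntl and Npas2 it lay below 1. That interval lay above 1 for 7, 6 and 8 of the 10 members in the Sp6, Sp8 and Sp6+Sp8 cKO libraries, and for 15.9%, 14.8% and 21.8% of all genes compared. It lay below 1 for 2 members in each, and for 15.9%, 14.9% and 24.2% of all genes. The 3 comparisons share the wildtype library, so they are not independent of each other. Past the size rule, Sp6 cKO had 2 members higher and 1 lower, where 2.24% and 2.16% of all 16884 genes compared were higher and lower. Sp8 cKO had 2 members higher and 0 lower, where 2.27% and 1.55% of 16878 genes were. Sp6+Sp8 cKO had 3 members higher and 2 lower, where 2.84% and 2.95% of 16861 genes were. These shares say nothing further about the members, which were picked with such ratios in view. The median log2 ratio of the 10 members was 0.56, 0.39 and 0.52 in the Sp6, Sp8 and Sp6+Sp8 cKO libraries, against -0.0084, -0.0083 and -0.015 over all genes compared. In whole tissue, a change in the share of cells of one type and a change in RNA per cell cannot be told apart.

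**Figure D1:**
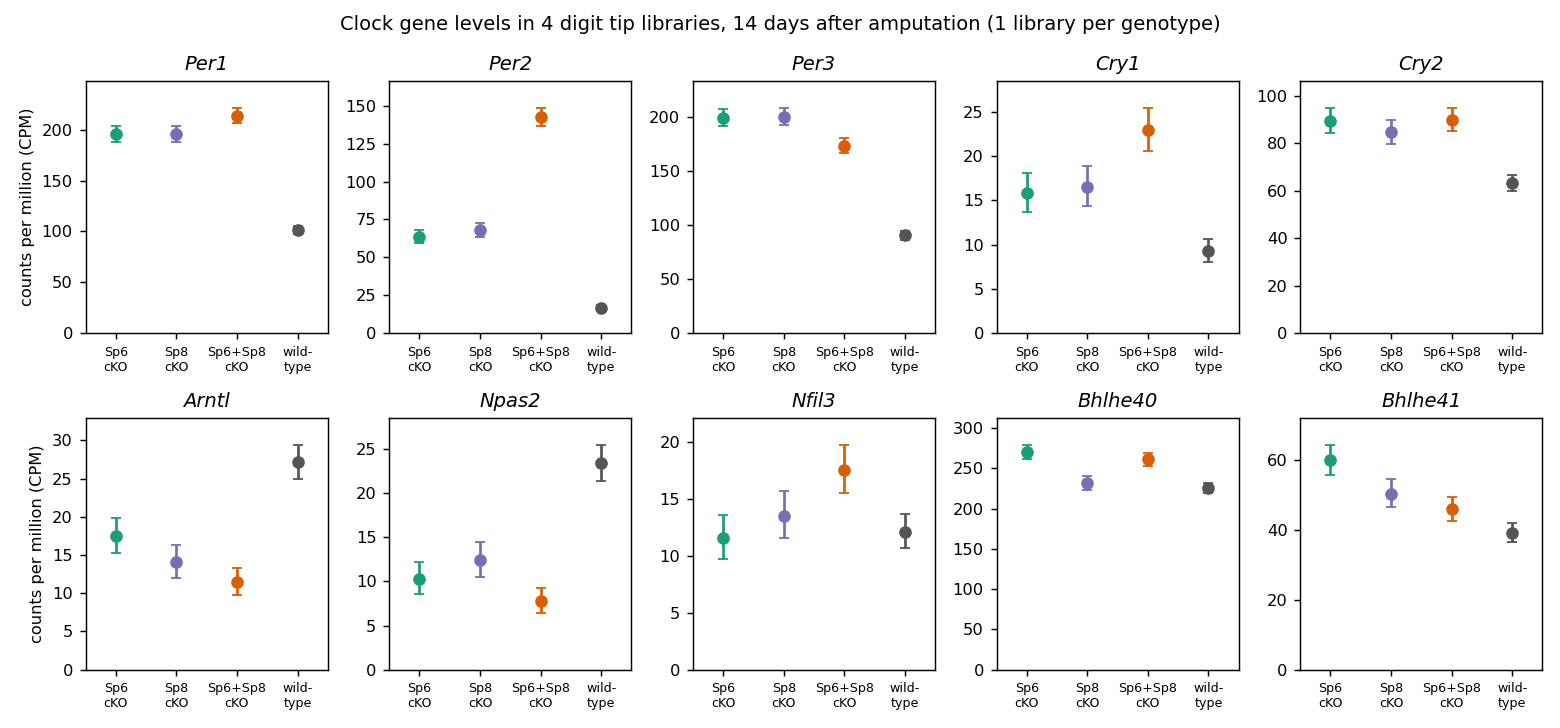
Level of each of the 10 clock genes in CPM (y axis, from 0) in the Sp6 cKO, Sp8 cKO, Sp6+Sp8 cKO and wildtype libraries (x axis). Points are single libraries and bars are exact 95% Poisson intervals for counting error; the wildtype point is the lowest for the Per and Cry genes and the highest for Arntl and Npas2.

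Per2, which encodes a core repressor of the loop, was the member that differed most. Per2 (ENSMUSG00000055866, GRCm38 chromosome 1, 91415982 to 91459324, minus strand) had 821, 857 and 2192 counts in the Sp6, Sp8 and Sp6+Sp8 cKO libraries, against 363 in the deeper wildtype library. These counts are 63.66, 68.03 and 142.5 CPM in the cKO libraries, against 16.70 CPM in wildtype. The Sp6+Sp8 cKO library stood apart above the single knockouts, which in turn stood above wildtype. The ratio to wildtype was 3.81-fold in Sp6 cKO (95% interval 3.37 to 4.33) and 4.07-fold in Sp8 cKO (3.60 to 4.62). In Sp6+Sp8 cKO it was 8.53-fold (7.63 to 9.56). Per2 was the only member higher past the size rule in all 3 cKO libraries.

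Per1, which is readily induced by hormones and cyclic AMP, lay near a ratio of 2 to wildtype in each cKO library. Per1 (ENSMUSG00000020893, chromosome 11, 69095217 to 69109960, plus strand) stood at 196 CPM in both Sp6 cKO and Sp8 cKO and at 214 CPM in Sp6+Sp8 cKO, against 101 CPM in wildtype. The single knockouts did not differ from each other beyond counting error. Their log2 ratios to wildtype were 0.95 each, just short of the size rule, and that of Sp6+Sp8 cKO was 1.08, just past it. Per3, whose loss leaves the clock of mice largely running, and which carries the pair of D-boxes shown above, was at 200, 201 and 174 CPM in the Sp6, Sp8 and Sp6+Sp8 cKO libraries, against 90.6 CPM in wildtype. Per3 (ENSMUSG00000028957, chromosome 4, 151003652 to 151044665, minus strand) was past the rule in Sp6 cKO and Sp8 cKO, at log2 ratios of 1.14 and 1.15. It was inside the rule in Sp6+Sp8 cKO, at 0.94. Unlike Per1 and Per2, it was lower in the library labelled Sp6+Sp8 cKO than in either single knockout.

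Scaled by exon length, Per2 stood below Per3 in wildtype and in the single knockouts and above it in Sp6+Sp8 cKO. Per kilobase of merged exon, Per1 gave 52.4%, 51.7% and 47.3% of the summed period level in the Sp6, Sp8 and Sp6+Sp8 cKO libraries, against 59.5% in wildtype. Per2 gave 16.4%, 17.3% and 30.2% of it in the cKO libraries, against 9.41% in wildtype. Per3 gave 31.3%, 31.0% and 22.5%, against 31.1% in wildtype. The summed period level itself was 66.4, 67.3 and 80.5 CPM per kilobase in the cKO libraries, against 30.3 in wildtype. In wildtype Per2 lay near the bottom of the 10 members, at 2.85 CPM per kilobase beside 2.77 for Cry1. In Sp6+Sp8 cKO it ranked 3 of 10, at 24.3, after Bhlhe40 at 55.5 and Per1 at 38.0.

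The cryptochromes, which bind the PER proteins and carry much of the repression of ARNTL, showed smaller ratios than Per2. Cry1 (ENSMUSG00000020038, chromosome 10, 85131700 to 85185064, minus strand) stood at 15.8, 16.5 and 22.9 CPM in the Sp6, Sp8 and Sp6+Sp8 cKO libraries, against 9.24 CPM in wildtype. The single knockouts did not differ beyond counting error, and Sp6+Sp8 cKO was the highest. Against wildtype only Sp6+Sp8 cKO was past the size rule, at 2.48-fold (2.08 to 2.97). Cry2 (ENSMUSG00000068742, chromosome 2, 92403646 to 92434043, minus strand) stood at 89.5, 84.5 and 89.9 CPM, against 63.2 CPM in wildtype. Its cKO levels did not differ from each other beyond counting error, and its ratios to wildtype, 1.42-fold, 1.34-fold and 1.42-fold, were inside the rule.

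Arntl and Npas2 were lower in the cKO libraries. Arntl (ENSMUSG00000055116, chromosome 7, 113207465 to 113314126, plus strand), the obligate partner in the activator pair, had 225, 177 and 176 counts in the Sp6, Sp8 and Sp6+Sp8 cKO libraries, or 17.4, 14.1 and 11.4 CPM, against 590 counts or 27.1 CPM in wildtype. It was lower past the size rule in Sp6+Sp8 cKO alone, where it was 2.37-fold lower (2.00 to 2.82). Npas2 (ENSMUSG00000026077, chromosome 1, 39193731 to 39363236, plus strand), which can stand in for CLOCK, had 133, 156 and 119 counts, or 10.3, 12.4 and 7.73 CPM, against 508 counts or 23.4 CPM in wildtype. It was 2.27-fold lower (1.87 to 2.76) in Sp6 cKO and 3.02-fold lower (2.47 to 3.72) in Sp6+Sp8 cKO, both past the rule, and 1.89-fold lower in Sp8 cKO, inside it. Clock, the usual partner of ARNTL, was at 263, 251 and 284 CPM, against 316 CPM in wildtype, with log2 ratios between -0.33 and -0.15.

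**Figure D2:**
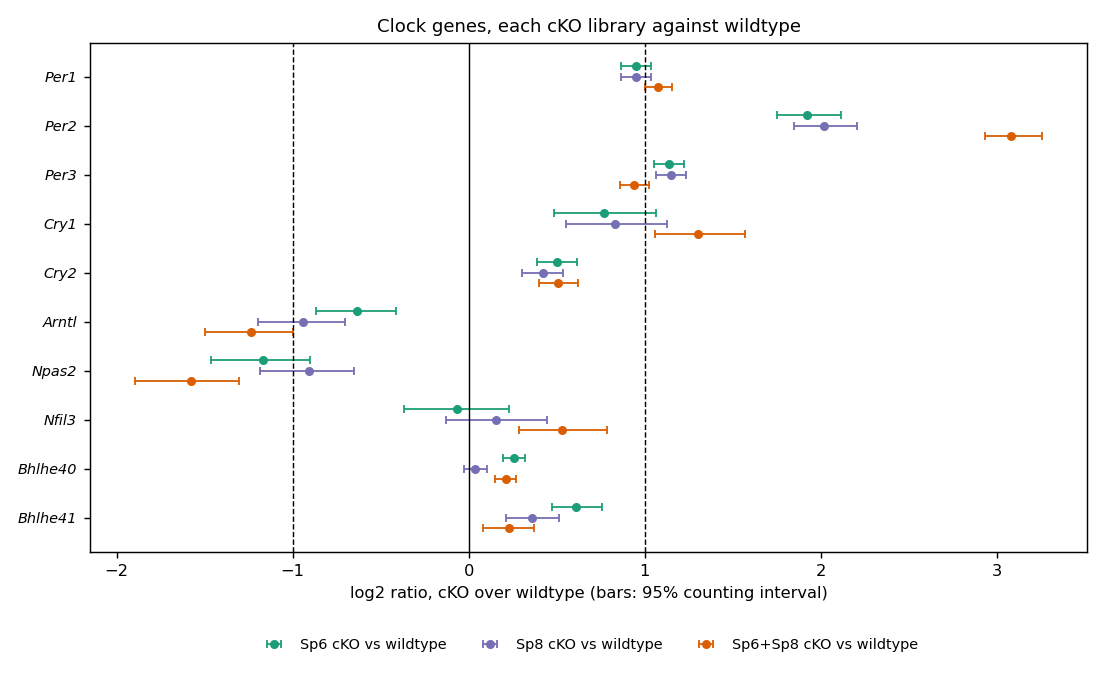
Log2 ratio of each clock gene in the Sp6, Sp8 and Sp6+Sp8 cKO libraries over wildtype (x axis), with 95% counting intervals as bars and the size rule's limits of -1 and 1 as dashed lines. Per2 lies farthest to the right, at 1.92, 2.02 and 3.08, and Npas2, at -1.17, -0.91 and -1.58, lies on the left beside Arntl.

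The 3 further repressors were inside the size rule in every comparison, those within batch 1 included. Nfil3 (ENSMUSG00000056749, chromosome 13, 52967209 to 52981073, minus strand) stood at 11.6, 13.5 and 17.5 CPM in the Sp6, Sp8 and Sp6+Sp8 cKO libraries, against 12.1 CPM in wildtype. Its counting interval held 1 for both single knockouts against wildtype. Bhlhe40 (ENSMUSG00000030103, chromosome 6, 108660629 to 108666925, plus strand) was the most abundant member per kilobase in all 4 libraries and stood at 270, 232 and 261 CPM, against 226 CPM in wildtype. Bhlhe41 (ENSMUSG00000030256, chromosome 6, 145858243 to 145865558, minus strand) stood at 59.9, 50.3 and 45.8 CPM, against 39.1 CPM in wildtype. Its window holds an E-box, as do that of Cry1 and the first window of Per1. Its log2 ratios of 0.61, 0.36 and 0.23 ran from the highest in Sp6 cKO to the lowest in Sp6+Sp8 cKO.

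Within batch 1, Per2 was the one member past the size rule in the library labelled Sp6+Sp8 cKO, in which Sp6 was only partly lower. It was 2.24-fold higher than in Sp6 cKO (2.06 to 2.43) and 2.09-fold higher than in Sp8 cKO (1.93 to 2.27). The other 9 members were inside the rule in both comparisons, where 1.89% of 16848 genes and 1.88% of 16889 genes were higher past it, and 2.08% and 2.8% lower. The counting interval lay above 1 for 4 members and below 1 for 4 in the comparison with Sp6 cKO, against 17% and 19.2% of all genes. With Sp8 cKO it lay above 1 for 5 members and below 1 for 2, against 18.1% and 20.8% of all genes. Cry1 and Nfil3 came next among the higher ones, Cry1 at log2 ratios of 0.53 to Sp6 cKO and 0.47 to Sp8 cKO and Nfil3 at 0.60 and 0.38. Arntl was at -0.60 and -0.29 and Npas2 at -0.41 and -0.67, with the interval of Arntl to Sp8 cKO holding 1. Per1 was at 0.13 in both and Per3 at -0.20 and -0.21. The direction seen against wildtype, with Per and Cry genes higher and activators lower, thus held for Per1, Per2, Cry1, Cry2, Arntl and Npas2 and not for Per3, and the values of Cry2, 0.0076 and 0.089, were within counting error.

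The single knockouts differed little from each other in these genes. In Sp8 cKO against Sp6 cKO, 0 of 10 members were past the size rule, where 1.75% of 16912 genes were higher and 1.35% lower. For 7 of the 10 the counting interval held 1, and it lay above 1 for 0 members and below 1 for 3, against 10.5% and 10.8% of all genes. Per1 had a ratio of 1.00 (0.946 to 1.06), Per3 of 1.01 (0.952 to 1.06) and Per2 of 1.07 (0.970 to 1.18). The other 3, Arntl, Bhlhe40 and Bhlhe41, were slightly lower in Sp8 cKO, at log2 ratios of -0.31, -0.22 and -0.25.

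**Figure D3:**
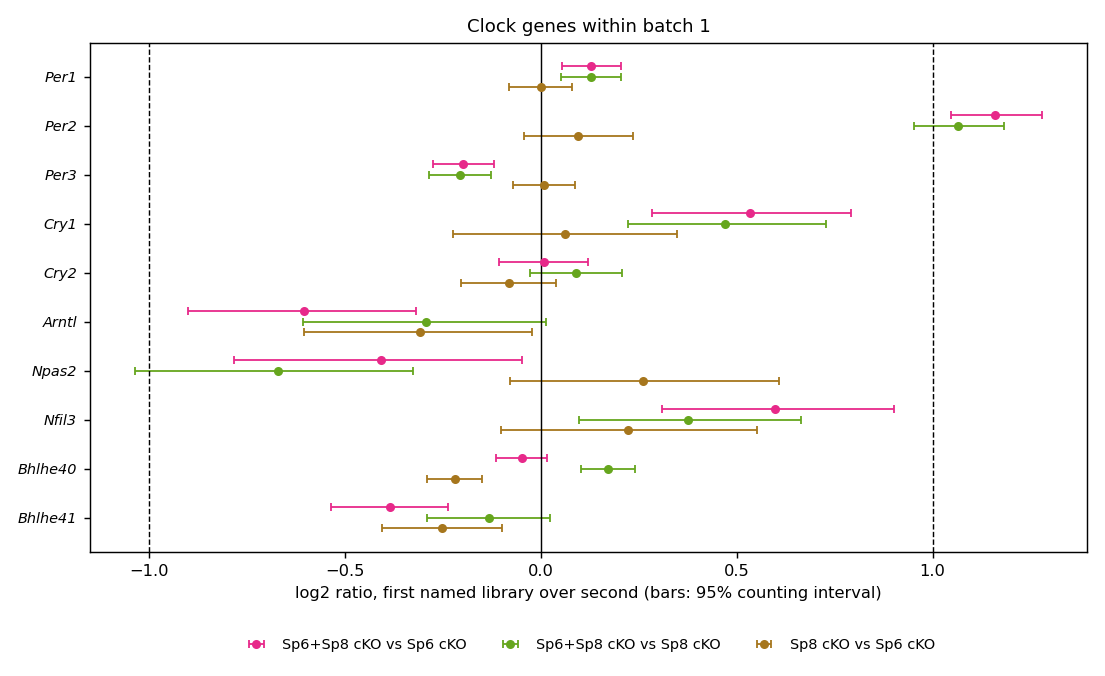
Log2 ratio of each clock gene between the batch 1 libraries (x axis, first named library over the second), with 95% counting intervals as bars and the size rule's limits of -1 and 1 as dashed lines. Per2 in Sp6+Sp8 cKO, at 1.16 over Sp6 cKO and 1.06 over Sp8 cKO, is the 1 gene beyond a dashed line.

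Ratios between 2 genes of one library do not depend on how libraries are scaled. Per2 counts were 3.65 (3.14 to 4.25), 4.84 (4.11 to 5.72) and 12.5 (10.7 to 14.6) times those of Arntl in the Sp6, Sp8 and Sp6+Sp8 cKO libraries, against 0.615 times (0.538 to 0.702) in wildtype. The order of Per2 and Arntl was therefore turned round between the cKO libraries and wildtype. Dbp, an output gene of the loop, gave 3.95, 4.85 and 4.91 times the Arntl count in the Sp6, Sp8 and Sp6+Sp8 cKO libraries, against 1.63 times in wildtype. Its ratio to Arntl was thus about the same in Sp8 cKO and Sp6+Sp8 cKO, where that of Per2 was not. Per2 likewise stood highest against Cry1 in Sp6+Sp8 cKO, with 4.02, 4.12 and 6.21 times its count in the cKO libraries, against 1.81 times in wildtype. Nr1d1 had 19.3, 24.1 and 27.1 times the Arntl count in the cKO libraries, against 16.7 times in wildtype. That is the same order of libraries as for Per2 over a narrower range, but Nr1d1 itself did not follow Per2. From 454 CPM in wildtype, Nr1d1 fell to 337, 339 and 310 CPM in the Sp6, Sp8 and Sp6+Sp8 cKO libraries. Its ratio rose only because Arntl fell further, from 27.1 CPM to 17.4, 14.1 and 11.4 CPM.

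**Figure D4:**
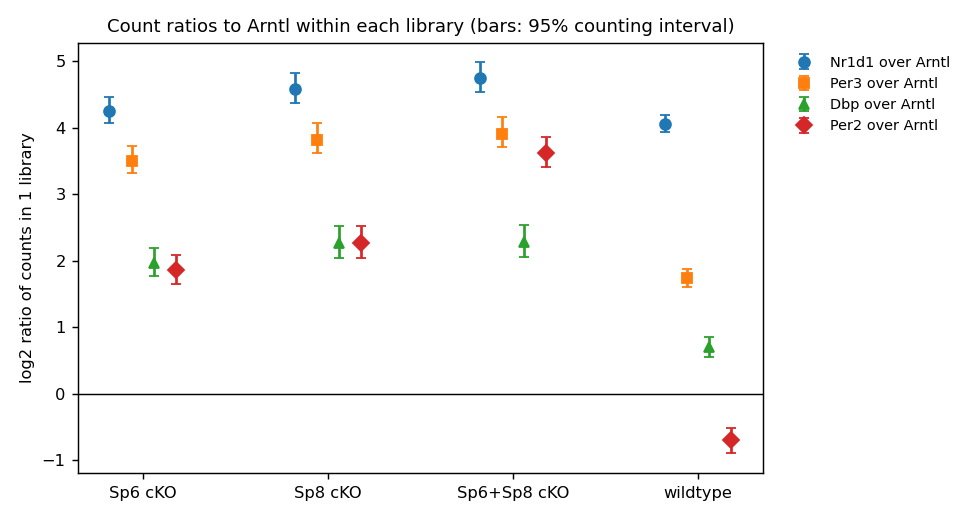
Log2 ratio of the counts of Nr1d1, Per3, Dbp and Per2 to those of Arntl within each library (y axis), by library (x axis), with 2 added to each count; bars are 95% counting intervals. Per2 over Arntl runs at 1.86, 2.26 and 3.62 in the Sp6, Sp8 and Sp6+Sp8 cKO libraries, and lies below 0 in wildtype, at -0.70.

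The rest of the clock was followed with 26 genes in 5 lists, all measured. Against wildtype 1, 1 and 3 were higher past the size rule in the Sp6, Sp8 and Sp6+Sp8 cKO libraries, and 0 were lower in each. Over all genes compared, 2.24%, 2.27% and 2.84% were higher and 2.16%, 1.55% and 2.95% lower. The median log2 ratios of the 26 genes were 0.038, 0.0079 and 0.13. In the 3 comparisons within batch 1, 0 of the 26 were past the rule. For Sp6+Sp8 cKO against Sp6 cKO and Sp8 cKO, 1.89% and 1.88% of all genes were higher and 2.08% and 2.8% lower. For Sp8 cKO against Sp6 cKO, 1.75% were higher and 1.35% lower. With 26 genes and shares this small, a count of 0 or 1 says little about these genes.

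Among the 6 further genes of the core loop, 0 were past the rule in any comparison, where 1.35% to 2.95% of all genes were in a given direction. The repressors Nr1d1 and Nr1d2 went opposite ways. Nr1d1 was at 337, 339 and 310 CPM, against 454 CPM in wildtype, and Nr1d2 at 126, 131 and 144 CPM, against 94.6 CPM. Their log2 ratios, from -0.55 to -0.42 for Nr1d1 and from 0.41 to 0.60 for Nr1d2, were inside the rule. Ciart, a repressor of the ARNTL complex with 3 E-boxes in its promoter window, was at 24.4, 24.1 and 19.8 CPM, against 16.1 CPM.

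The PAR bZIP factors, which act at the D-box, were all higher in the cKO libraries than in wildtype, with 1 of 3 past the rule and in Sp6+Sp8 cKO alone. Hlf was that gene, at 129, 116 and 156 CPM in the Sp6, Sp8 and Sp6+Sp8 cKO libraries, against 69.9 CPM in wildtype. In Sp6+Sp8 cKO against wildtype, 2.84% of all genes were higher past the rule. Tef was at 239, 237 and 224 CPM, against 142 CPM, and Dbp at 68.9, 68.2 and 56.2 CPM, against 44.2 CPM. As for Per3, the levels of Tef and Dbp, and those of Ciart and the output gene Tspan4, were lowest among the cKO libraries in the one labelled Sp6+Sp8 cKO. Other genes of these lists went the other way. Hlf, Nr1d2 and the output genes Wee1 and Nampt were highest there among the cKO libraries. For Dbp the log2 ratio of Sp6+Sp8 cKO was -0.30 to Sp6 cKO and -0.28 to Sp8 cKO, and for Ciart it was -0.30 and -0.29. Of 10 kinase, ligase and deubiquitinase genes that set the lifetime of PER and CRY proteins, 0 were past the rule in any comparison. Of all genes, between 1.35% and 2.95% were past it in a given direction, so that count says little about these 10. Csnk1d and Csnk1e, the kinases that phosphorylate PER, had log2 ratios to wildtype between -0.14 and -0.018. Usp2 was the farthest out, at 55.6 CPM in Sp6+Sp8 cKO, against 86.0 CPM in wildtype. Among 5 output genes that cycle in many mouse organs, Tsc22d3 was past the rule in each cKO library, at 85.5, 93.8 and 90.9 CPM, against 34.1 CPM in wildtype. Wee1, a cell cycle kinase gene driven through E-boxes, was past it in Sp6+Sp8 cKO, at 23.8 CPM, against 11.1 CPM. The PER-associated genes Timeless and Tipin were inside it in each comparison.

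**Figure D5:**
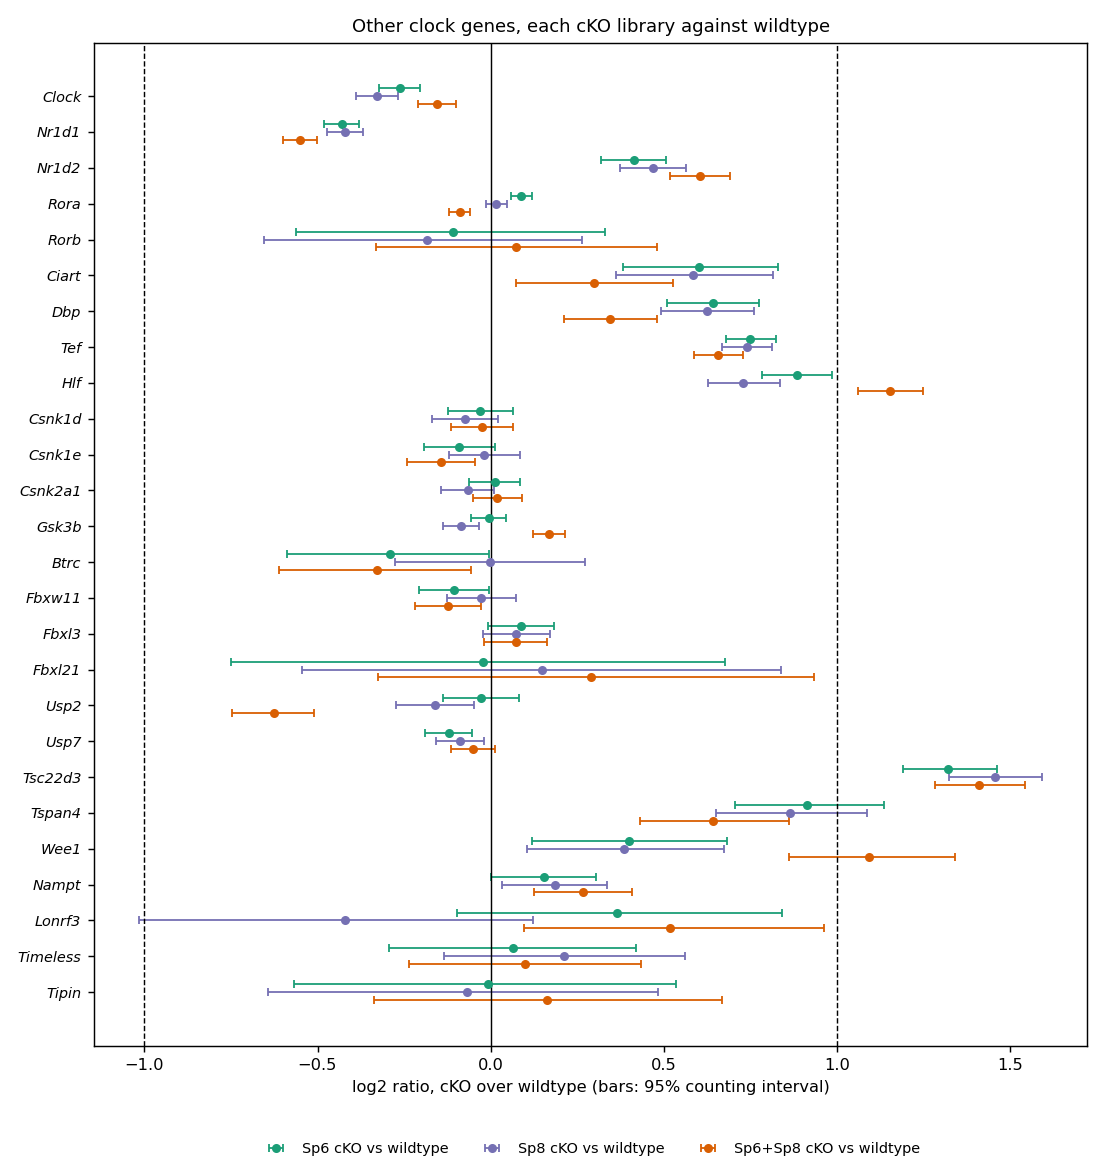
Log2 ratio over wildtype (x axis) of 26 further clock genes in the Sp6, Sp8 and Sp6+Sp8 cKO libraries, with 95% counting intervals as bars and the size rule's limits of -1 and 1 as dashed lines. Tsc22d3 lies beyond the upper limit in all 3 libraries, Hlf and Wee1 in Sp6+Sp8 cKO, and the PER and CRY kinases and ligases lie inside the limits.

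Some other features also set Sp6+Sp8 cKO apart from the single knockouts, though not all of them followed Per2 in the comparisons with wildtype. Within batch 1, 5 of 18 immediate early genes were higher past the rule in Sp6+Sp8 cKO against Sp6 cKO, with 1, Fos, lower. Against Sp8 cKO, 5 were higher and 0 lower. In these comparisons 1.89% and 1.88% of all genes were higher past the rule, and 2.08% and 2.8% lower. The median log2 ratio of the 18 genes was 0.071 and 0.21. Against wildtype 1, 0 and 5 of the 18 were higher past the rule in the Sp6, Sp8 and Sp6+Sp8 cKO libraries. Over all genes compared, 2.24%, 2.27% and 2.84% were. Fosb had 1236 counts in Sp6+Sp8 cKO, against 247 in Sp6 cKO and 110 in Sp8 cKO, and Atf3 had 190, against 41 and 28. The summed level of that list was 1457 CPM in Sp6+Sp8 cKO, against 1422 CPM in Sp6 cKO, 1214 CPM in Sp8 cKO and 1273 CPM in wildtype, with 0 of its genes at 0 counts. Of 8 cyclic AMP target genes 2 were higher, Fosb and Nr4a1, which the immediate early list also holds, while Crem, at log2 ratios of -0.085 and -0.23, was not. The 4 nail and hair keratin markers were all lower past the rule in Sp6+Sp8 cKO than in both single knockouts. All 4 were also lower there than in wildtype, at log2 ratios from -1.26 to -0.88, with 1 of them past the rule. These markers summed to 1668 CPM in Sp6+Sp8 cKO, against 3704 CPM in Sp6 cKO, 4070 CPM in Sp8 cKO and 3408 CPM in wildtype. Mitochondrially encoded genes took 6.24% of counts in Sp6+Sp8 cKO, against 4.71%, 4.35% and 4.73% in Sp6 cKO, Sp8 cKO and wildtype. The part of each of these in the Per2 level was not tested.

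Among 11 glucocorticoid-responsive genes, 1, 2 and 2 were past the rule in the Sp6, Sp8 and Sp6+Sp8 cKO libraries against wildtype, all higher, and 0 were past it in the comparisons within batch 1. They were Tsc22d3, which the list of cycling output genes also holds, and Zbtb16, at 26.7, 47.6 and 48.2 CPM in the Sp6, Sp8 and Sp6+Sp8 cKO libraries, against 17.1 CPM in wildtype. Fkbp5, a standard glucocorticoid target, had log2 ratios to wildtype of 0.44, 0.73 and 0.83. The list summed to 1018, 1042 and 1046 CPM, against 901 CPM in wildtype, with 0 genes at 0 counts. Heat shock genes had 0 of 7 members past the rule in any comparison, where 1.35% to 2.95% of all genes were in a given direction. Neutrophil markers summed to 61.3, 39.9 and 85.7 CPM in the cKO libraries, against 12.1 CPM in wildtype, with 2 of the 4, S100a8 and S100a9, higher past the rule in each. The other two neutrophil markers did not share this: Retnlg was at 1.32, 1.83 and 1.10 CPM, against 1.38 CPM in wildtype, and Ly6g had 1, 5 and 0 counts, against 8 in wildtype. Osteoclast markers summed to 209, 328 and 311 CPM, against 115 CPM, with 1, 3 and 2 of the 4 higher past the rule and 0 at 0 counts. T cell markers (Cd3e, Cd3g, Trdc and Il2rb) summed to 21.8, 6.83 and 19.3 CPM, against 2.99 CPM, with 0 at 0 counts. Of the T cell genes compared, 4 of 4, 1 of 3 and 4 of 4 were higher past the rule. The wildtype library held only 24, 10, 18 and 13 counts of the 4 genes. Erythroid markers summed to 331, 678 and 344 CPM, against 258 CPM, with 1, 4 and 1 of the 4 higher past the rule and 0 at 0 counts. Among them Hba-a1 was lower in Sp6 cKO and Sp6+Sp8 cKO, at 79.9 and 98.9 CPM, against 148 CPM in wildtype. Within batch 1, the T cell markers were higher past the rule in Sp6+Sp8 cKO against Sp8 cKO for 4 of 4, and the erythroid ones lower for 2 of 4. Of all genes compared, 2.24%, 2.27% and 2.84% were higher past the rule in the Sp6, Sp8 and Sp6+Sp8 cKO libraries against wildtype. In Sp6+Sp8 cKO against Sp8 cKO, 1.88% were higher and 2.8% lower. The part of these marker lists in the clock gene levels was not tested.

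The 5 genes whose pattern over the 4 libraries was most like that of Per2 were on none of the clock lists used here. Absence from these short fixed lists does not show that a gene lies outside clock control. By the distance between log2 CPM centred on each gene's mean, among 10047 genes that reached 10 CPM in a library, predicted genes left out, the nearest were S100a9 (0.49), S100a8 (0.62), Ccl8 (0.68), Mmp9 (0.73) and Hsd3b6 (0.82). S100a8 and S100a9, both on the neutrophil list, encode the subunits of calprotectin. Mmp9, a matrix protease gene, is on the osteoclast list, while Ccl8 encodes a chemokine and Hsd3b6 a steroid dehydrogenase. Tsc22d3 was at rank 15, Cry1 at 23, Hlf at 35, Per1 at 40 and Per3 at 58. Npas2 and Arntl came near the far end, at ranks 9991 and 9966. The nearest to Arntl were Igfbp2 (0.069), Higd1a (0.11), B4galnt3 (0.19), Col7a1 (0.23) and Fam171b (0.23), with Npas2 at rank 74 and Nr1d1 at rank 137. These distances rest on 4 libraries and carry no p-value.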

How the data were processed

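Poly-A RNA of digit tip regenerates was sequenced as strand-specific paired-end libraries, per the labels' protocols, with 1 library for each of 4 genotypes. The authors deposited 1 table of gene-level estimated counts that are unscaled and need not be whole. Build GRCm38 is listed in the submitters' processing notes, as are Salmon, STAR, featureCounts, deepTools, edgeR and Trim Galore 0.6.4, with no role stated. Neither the annotation nor the strand setting of the counting is stated there. Of the table's columns, 1 has a name that fits no sample and was left out. Estimated counts depend on how shared reads were divided. Each of the 10 members has 1 gene identifier, and no exon of another annotated gene overlaps theirs on the same strand. Antisense transcripts overlap exons of Arntl, Bhlhe40, Bhlhe41 and Cry2, whose values are uncertain to that extent.

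Counts were rounded and scaled with TMM factors (edgeR 4.0.16, R 4.3.3) over the 4 libraries. Log2 ratios used log2 CPM with a prior count of 2. Intervals are exact Clopper-Pearson intervals at 95%, conditional on the sum of both counts. They cover counting error only, and reads amplified by PCR are not independent molecules. Positions and merged exon lengths came from GENCODE M21 (GRCm38). Alternatives were DESeq2 1.42.0 size factors, library totals, other prior counts and other filters.

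The members and lists were chosen with earlier results of these data known. All 10 members are named. Further clock genes, library features and markers were named from fixed lists, with the immediate early, cyclic AMP, glucocorticoid and heat shock lists limited to 4 genes per comparison by absolute log2 ratio, and the 5 genes most like Per2 and Arntl by distance. Fos and Crem were named in addition, after their values were seen. The ratios of Dbp, Nr1d1, Per3 and Cry1 within a library were also added then. A gene of the fixed clock lists is not reported here.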

Additional observations from a re-analysis of the deposited data

Results flagged for a closer look

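Per3 and Bhlhe41 had log2 ratios of opposite sign in pairs of comparisons that differ, by their labels, in the same Sp gene, with the counting intervals excluding 1. By the Sp6 label, Per3 was at -0.21 in Sp6+Sp8 cKO over Sp8 cKO and at 1.14 in Sp6 cKO over wildtype, a difference of -1.34. Sp6 itself was 1.65-fold lower in the first of these and 3.34-fold lower in the second, so they do not set equal losses of Sp6 side by side. By the Sp8 label, Per3 was at -0.20 in Sp6+Sp8 cKO over Sp6 cKO and at 1.15 in Sp8 cKO over wildtype, which is again a difference of -1.34, since both rest on the same 4 libraries. Bhlhe41 was at -0.38 and 0.36 in these comparisons, a difference of -0.74. Sp8 was 4.94-fold and 3.82-fold lower in them, while Sp6 was 1.98-fold higher in the first. The differences were not tested, and the second ratio of each pair crosses batches while the first does not.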

How the results depend on the processing

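Each of 330 member log2 ratios under another library scaling or prior count lay within the counting interval of the reported value, and the farthest moved by 0.049. The largest median shift over all genes under another scaling was 0.048. In 51 recounts with other scalings, prior counts or CPM filters, or with unrounded counts and no interval in the rule, the number of members past the size rule was that of the main setting. When the limit on the log2 ratio was 0.5 and not 1, the members past it numbered 8, 6 and 8 in the Sp6, Sp8 and Sp6+Sp8 cKO libraries against wildtype, in place of 3, 2 and 5. Within batch 1 they then numbered 4 in Sp6+Sp8 cKO against Sp6 cKO and 2 against Sp8 cKO, in place of 1 each, and 0 in Sp8 cKO against Sp6 cKO, as before. Over all genes the count past the rule was 743, 645 and 976 for the Sp6, Sp8 and Sp6+Sp8 cKO libraries over wildtype. It was 1801, 1636 and 2855 at a log2 ratio of 0.5, and 255, 192 and 376 with a CPM of at least 5. Without a CPM filter that of Sp8 cKO was 973. Within batch 1 the counts were 669, 790 and 525 for Sp6+Sp8 cKO against Sp6 cKO, Sp6+Sp8 cKO against Sp8 cKO and Sp8 cKO against Sp6 cKO, with 1991, 2295 and 1210 at 0.5 and 214, 277 and 135 at 5 CPM. No library could be left out, since each genotype has 1. No paired analysis was possible because each group has 1 library. Depth limits Npas2, Arntl, Nfil3 and Cry1 most, with 119 to 590 counts a library.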
